A study of Rattus norvegicus with 12 samples.

Results

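The lower expressed spermatid markers are 182 genes of rat testis. They come from the 578 germ cell markers, carried over from mouse single-cell data by homology, in the marker table as used here, of which 385 were of the spermatid class. A spermatid marker was taken as a member when its transcripts summed to a mean below 125 TPM in the 3 control libraries, where TPM is the abundance of a transcript relative to its length and to the library. The chaperone, solute carrier, outer dense fibre, ubiquitin and some other families, 54 spermatid markers in all, were left out by name, and 149 further spermatid markers lay at or above the limit. The control levels therefore chose the members and are given as a description only.

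The male Sprague-Dawley rats were 8 weeks old before the days of stress or control handling began. Testes were taken after those days, so at a later age, and 3 samples per group were sequenced. Stressed rats were restrained on their backs for 6 h and then swam for 5 min in ice water (RS+IS) on each of 3, 14 or 21 days. Control rats went without food and water for the same hours but moved freely, and the labels give them as a single group without a day. The study asked how the duration of stress bears on germ cells of each stage, and 14 and 21 days are its chronic stress. Each sample is testis tissue and not sorted cells, so a change in the number of spermatids and one in the RNA per spermatid cannot be told apart. Nor can a change in other testis cells that express a member. The members came from mouse data, and whether rat spermatids alone express them was not tested. All values are relative to the library, so a higher one need not mean more spermatid RNA. More of this RNA and less RNA of other cells cannot be told apart either.

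Spermatids are the haploid cells that meiosis leaves. Round spermatids transcribe the genes of the acrosome, the vesicle that opens at fertilisation, and of the flagellum, and the elongating spermatid then packs its DNA with protamines and falls silent. Much of this programme is switched on by the factor CREM, which binds the cyclic AMP response element. The members carry the mouse labels RS4, RS6 and RS8, which stand for round spermatids of successively later steps.

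The 12 libraries held between 23908048 and 29404590 estimated counts, of which the members took between 1.92% and 2.24%. All 182 members were counted in every library and passed the filter on low counts, the lowest count of a member being 28. The markers of the other germ cells were also counted in every library, with 181 of 181 for spermatocytes and 12 of 12 for spermatogonia. The mean log2 CPM of the spermatogonia markers was 4.98 in control replicate 1, against 4.42 to 4.79 in the other 11 libraries. Names of somatic cell markers were not paired with the transcripts, so these were not analysed here.

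The median member stood at 58.6 TPM in the control testis, with quartiles of 34.9 and 83.3 TPM. The highest was Lgals8, a galectin, at 125 ± 2 TPM (SD, n = 3), and the lowest was Dscc1, a sister chromatid cohesion factor, at 1.22 ± 0.202 TPM. Only 12 members were under 10 TPM. Just inside the limit lay Micalcl at 122 TPM, Lpin1 at 123 TPM and Lgals8, and just outside it Ppm1a at 126 TPM, Pdzk1ip1 at 129 TPM and Pwwp2b at 129.7 TPM. Replicates lay close together, with a median coefficient of variation within groups of 7.0% and 154 members under 10%. Only Nqo2, a quinone reductase, and Actg2, the gamma actin of smooth muscle, were over 20%. The leading transcript of a member had a median length of 2002.5 bases, against 1390 bases for the 149 higher spermatid markers.

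The acrosome genes were led in control testis by Eqtn, or equatorin, at 112 ± 8.46 TPM. Izumo1, the sperm protein that binds the egg receptor, stood at 76.6 ± 3.44 TPM, Hyal5, a sperm hyaluronidase, at 55.5 ± 3.64 TPM, and Zp3r, an acrosomal matrix protein, at 44.1 ± 1.86 TPM. Of the sperm calcium channel, Catsper3 stood at 61.7 ± 1.58 TPM and Catsper4 at 14.3 ± 1.15 TPM. Chd5, a chromatin remodeller needed when histones give way to protamines, stood at 57.7 ± 1.87 TPM. Among the enzymes of lipid metabolism, Lpin1 and Dgat2, which act on the route to triglyceride, stood at 123 ± 13.9 TPM and 105 ± 4.69 TPM, and Lipe, the hormone-sensitive lipase that breaks it down, at 88.1 ± 6.83 TPM. At the low end were Rasa3, a brake on Ras, at 1.83 ± 0.628 TPM, Creb3l4, a transcription factor tethered in the endoplasmic reticulum, at 2.22 ± 0.595 TPM, and Cdkn1c, a cyclin-dependent kinase inhibitor, at 3.63 ± 0.139 TPM.

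Promoter windows of RefSeq on GRCr8, from 250 bases before to 50 after the start of the gene, were at hand for 149 of the 182 members, 144 by symbol and 5 by an older name. The full cyclic AMP response element, TGACGTCA, was found in 9 of the 149 windows (6.04%) and in 422 of the 19005 windows of protein-coding genes (2.22%). Its shorter form TGACG, which the full element contains, was in 30.9% against 24.2%, with either strand read for every motif. TATAAA was in 6.04% against 13.1%, CCAAT in 34.9% against 38.4% and GGGCGG in 53.0% against 43.1%. The 9 members with the full element were Bcas2, Ccdc169, Isg20l2, Izumo1, Lyzl6, Mycbpap, Nipsnap3a, Nupl2 and Zdbf2. A match is a description of these letters and not of binding. The 180 bases before the start are printed for 5 of them, chosen as a fertilisation gene, a sperm lysozyme-like gene, a gene with an element close to the start, a coiled-coil gene of no listed role and Bcas2, the member of smallest p among those with lower values under chronic stress. Ttll9, called higher under chronic stress below, is shown for contrast. Capitals mark TGACGTCA or TGACG on either strand.
Izumo1, chr1:105227423-105227602, plus strand: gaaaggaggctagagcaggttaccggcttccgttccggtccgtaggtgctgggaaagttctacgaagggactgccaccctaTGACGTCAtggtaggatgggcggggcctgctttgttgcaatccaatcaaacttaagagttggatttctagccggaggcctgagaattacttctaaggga
Lyzl6, chr10:89049211-89049390, minus strand: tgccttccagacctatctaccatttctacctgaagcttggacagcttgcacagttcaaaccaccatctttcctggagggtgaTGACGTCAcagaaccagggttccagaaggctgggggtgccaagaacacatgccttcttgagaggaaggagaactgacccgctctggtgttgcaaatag
Mycbpap, chr10:79967493-79967672, minus strand: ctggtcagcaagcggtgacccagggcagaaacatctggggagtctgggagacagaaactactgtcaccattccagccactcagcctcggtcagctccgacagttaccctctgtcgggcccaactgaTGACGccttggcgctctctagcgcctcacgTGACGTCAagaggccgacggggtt
Ccdc169, chr2:141471630-141471809, plus strand: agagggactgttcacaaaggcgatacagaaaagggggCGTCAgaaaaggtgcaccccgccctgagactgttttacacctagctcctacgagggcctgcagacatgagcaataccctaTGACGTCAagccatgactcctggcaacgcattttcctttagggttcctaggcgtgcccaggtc
Bcas2, chr2:193380820-193380999, plus strand: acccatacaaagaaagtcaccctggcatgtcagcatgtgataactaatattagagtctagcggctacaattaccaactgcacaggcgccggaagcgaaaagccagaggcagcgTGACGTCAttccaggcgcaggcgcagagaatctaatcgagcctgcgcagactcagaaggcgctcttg
Ttll9, chr3:161889515-161889694, plus strand: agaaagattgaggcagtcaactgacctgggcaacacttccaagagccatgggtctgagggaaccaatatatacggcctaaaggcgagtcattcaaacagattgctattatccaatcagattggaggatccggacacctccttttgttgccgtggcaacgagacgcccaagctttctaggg
The first base of the full element lay 99 bases before the start in Izumo1, 98 in Lyzl6, 67 in Bcas2, 63 in Ccdc169 and 24 in Mycbpap. The stretch of Ttll9 holds neither form. In chronic stress against control, Bcas2, chosen for its lower values, had a log2 fold change of -0.25 (adjusted p = 0.0835 with edgeR) and Ccdc169 one of 0.36. Whether the element bears on the direction of the members that carry it was not tested.

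The members as a group stood at nearly the same level in the control and 3-day libraries and higher in the chronic ones. Their mean log2 CPM, on library-scaled counts (CPM, with TMM factors), was 6.13, 6.31 and 6.23 in the control libraries and 6.16, 6.26 and 6.22 in the 3-day libraries. It was 6.33, 6.30 and 6.35 in the 14-day libraries and 6.31, 6.44 and 6.35 in the 21-day libraries. Every chronic library but 14-day replicate 2 was above every control and 3-day library, and that library was below control replicate 2 alone. In units of counts, the members took 1.92% to 2.10% of a control library, 1.96% to 2.09% of a 3-day library, 2.10% to 2.18% of a 14-day library and 2.14% to 2.24% of a 21-day library.

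**Figure D1:**
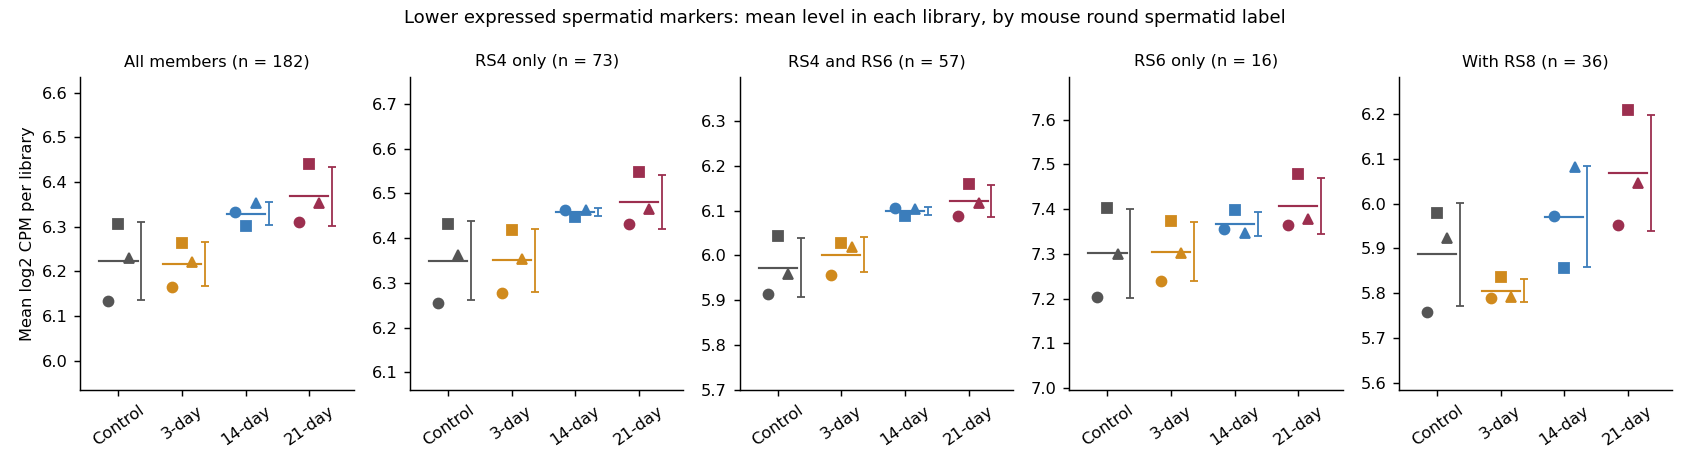
Mean log2 CPM of all 182 members and of the members under each mouse round spermatid label, in each of the 12 libraries (circle, square and triangle for replicates 1, 2 and 3), with the group mean as a line and the SD as a bar. The 3-day libraries lie among the controls in every panel, those with RS8 in the lower part of the control range, and the 21-day mean is the highest of the 4 groups in each panel.

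After 3 days of stress the members did not stand apart from control. Their median log2 fold change was -0.01, as it was for all 21076 features tested, and 84 of the 182, or 46.2%, had a positive one, where 47.5% of all features did. At an unadjusted p under 0.05, the criterion of the study, 4 members were higher (2.03% of all features were) and 5 lower (2.01%). The groups did not overlap for 5 higher (background 5.3%) and 9 lower members (background 4.52%). No member passed an adjusted p of 0.05 with edgeR or with DESeq2, which called 0.0767% of all features higher and 0.0808% lower. The 5 lower members became 28 without control replicate 1 and 2 or 3 without control replicate 2 or 3 or 3-day replicate 1 or 3. The higher ones were 8 without control replicate 2, and 1 or 2 without control replicate 3 or without replicate 2 or 3 of the 3-day group.

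After 14 days the median member had a log2 fold change of 0.10 over control, a difference of 7.31%, and 152 members were above 0, while the median of all features was -0.01 and 47.7% of them were positive. At an unadjusted p under 0.05, 27 members were higher, or 14.8%, where 7.19% of all features were, and 1 was lower, where 4.86% were. The groups did not overlap for 36 higher members (background 10.8%) and 2 lower ones (background 9.32%). After 21 days the median was 0.13, a difference of 9.69%, with 158 positive (background 49.5%). There 30 members were higher, or 16.5% against a background of 8.46%, and 1 was lower against 5.71%, while 40 did not overlap control upwards (background 12.1%) and 1 downwards (background 10.2%). With edgeR, 0 members passed an adjusted p of 0.05 in either comparison (of all features, 0.00474% were called higher and 0.0142% lower at 21 days), and DESeq2 called 2 members higher after 14 days (1.10%, background 1.28%) and 6 after 21 days (3.31%, background 3.08%), shares near the background. Both comparisons use the same 3 control libraries. The count after 14 days was 53 without control replicate 2, 17 without control replicate 3, 13 without 14-day replicate 1 and 15 without 14-day replicate 3. The count after 14 days was 41 with total count scaling, and that after 21 days 50 with it and 54 in 1 fit of all 12 libraries. The count after 21 days was 15 without control replicate 1, 19 without control replicate 3, 17 without 21-day replicate 2 and 13 without 21-day replicate 3.

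**Figure D2:**
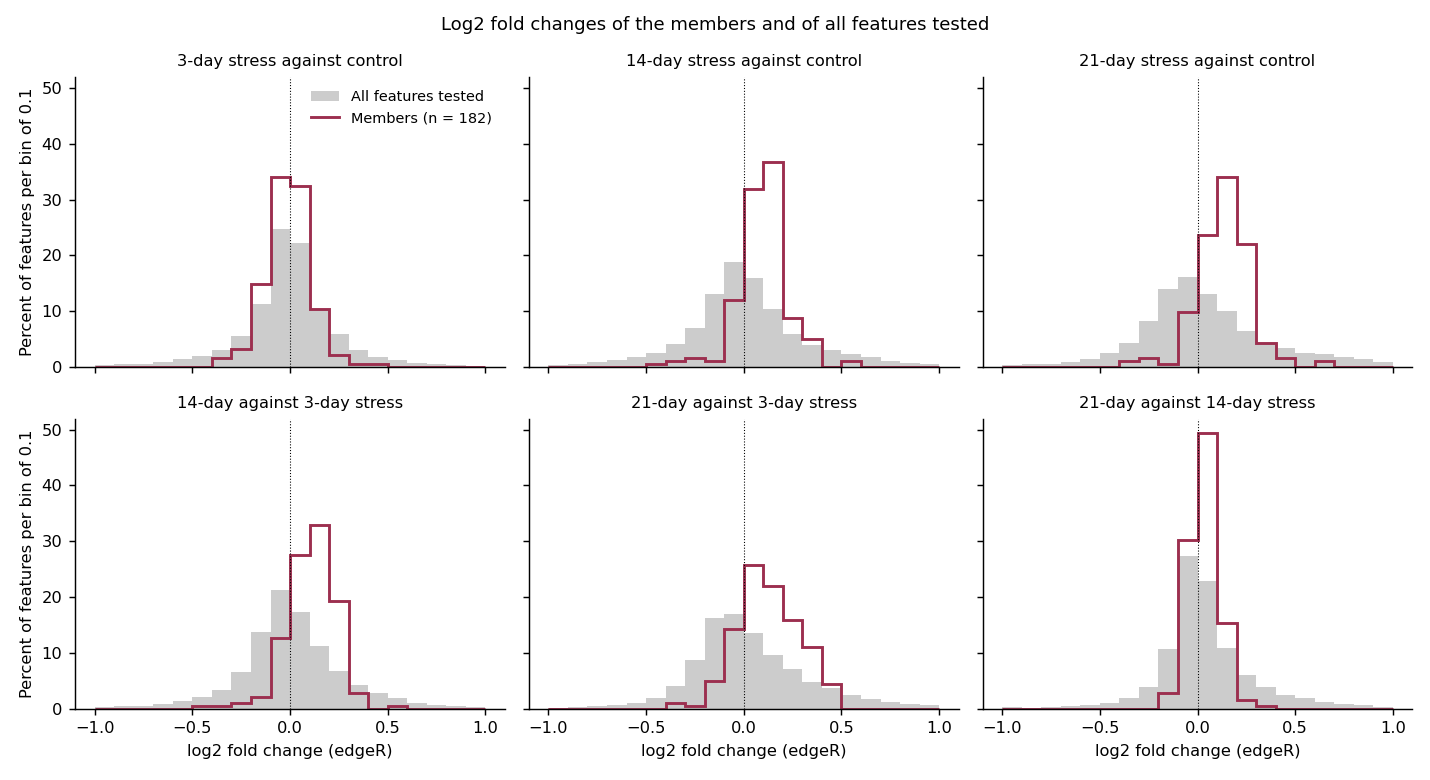
Distribution of log2 fold changes from edgeR in 6 comparisons, as the percent of features in bins of 0.1 between -1 and 1, for the 182 members (line) and all features tested (grey). The members centre on -0.01 at 3 days against control, on 0.10 and 0.13 at 14 and 21 days against control, and on 0.12 for either chronic group against the 3-day group.

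Taking the 6 chronic libraries against the 3 controls, 158 of the 182 members had a positive log2 fold change (background 49%), with a median of 0.12 and quartiles of 0.05 and 0.18. Only 18 lay above 0.25 and 3 below -0.25, the extremes being 0.58 for Cdkn1c and -0.35 for Actg2. At an unadjusted p under 0.05, 43 members were higher (23.6%, background 11.1%) and 2 lower (1.10%, background 9.29%). The background, here and in the other comparisons, holds mostly transcripts taken singly and was not matched to the members in level or spread. An adjusted p under 0.05 over all 21663 features was reached by 5 members, all higher, where 1.42% of features were called higher and 0.314% lower. The chronic libraries lay wholly above the controls for 24 members (13.2%, background 6.75%) and wholly below for 1 (background 4.78%). The 43 became 82 without control replicate 2 and 27 without control replicate 1, and the median ranged from 0.08 to 0.18 over the 9 fits that leave out a library.

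The 5 members called higher under chronic stress, at an adjusted p under 0.05 with edgeR, were Ccdc27, Got1l1, Fam53c, Ttll9 and Cdkn1c. Ccdc27, a coiled-coil protein, was at 36.2, 38.3 and 32.9 CPM in the 3 control libraries, 35.8, 40.9 and 42.7 in the 3-day, 52.5, 52.7 and 48.1 in the 14-day and 57.8, 53.4 and 53 in the 21-day libraries. All 6 chronic values lie above all 6 others, and the log2 fold change was 0.56 (SE 0.068, adjusted p = 0.0227), or 1.47-fold. Got1l1, a relative of the cytosolic aspartate aminotransferase, was at 21.6, 24.3 and 24 CPM in the 3 control libraries, 23.6, 24.2 and 23.3 in the 3-day, 29.8, 29.9 and 29.7 in the 14-day and 33.5, 32.1 and 33.2 in the 21-day libraries. The control and 3-day values overlap, and the 3 values at 21 days lie above the 3 at 14 days, which lie above all others. The log2 fold change was 0.42 (SE 0.0677, adjusted p = 0.028).

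Fam53c was at 30.3, 28.7 and 28.3 CPM in the 3 control libraries, 29.8, 33.6 and 35.1 in the 3-day, 37.8, 40.1 and 34 in the 14-day and 38.2, 44.5 and 41.2 in the 21-day libraries, with a log2 fold change of 0.43 (SE 0.0803, adjusted p = 0.0372). The 14-day replicate 3 overlaps the 3-day group here, though not the controls. Ttll9, of the family that adds glutamates to the tubulin of the flagellum, was at 24.6, 23.7 and 22.2 CPM in the 3 control libraries, 26.6, 27.8 and 23.3 in the 3-day, 29.2, 28.5 and 28.1 in the 14-day and 28.2, 31.4 and 29.8 in the 21-day libraries. Its chronic values exceed every control and 3-day value by a narrow margin, and the log2 fold change was 0.31 (SE 0.0606, adjusted p = 0.0401). Cdkn1c was at 5.33, 5.25 and 5.38 CPM in the 3 control libraries, 6.63, 7.79 and 6.1 in the 3-day, 7.34, 6.91 and 8.55 in the 14-day and 8.15, 9.65 and 7.5 in the 21-day libraries. Here the 3-day values were also above all controls, with a log2 fold change of 0.36 (SE 0.141, adjusted p = 0.985) at 3 days and 0.58 (SE 0.122, adjusted p = 0.0472) in the chronic libraries.

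**Figure D3:**
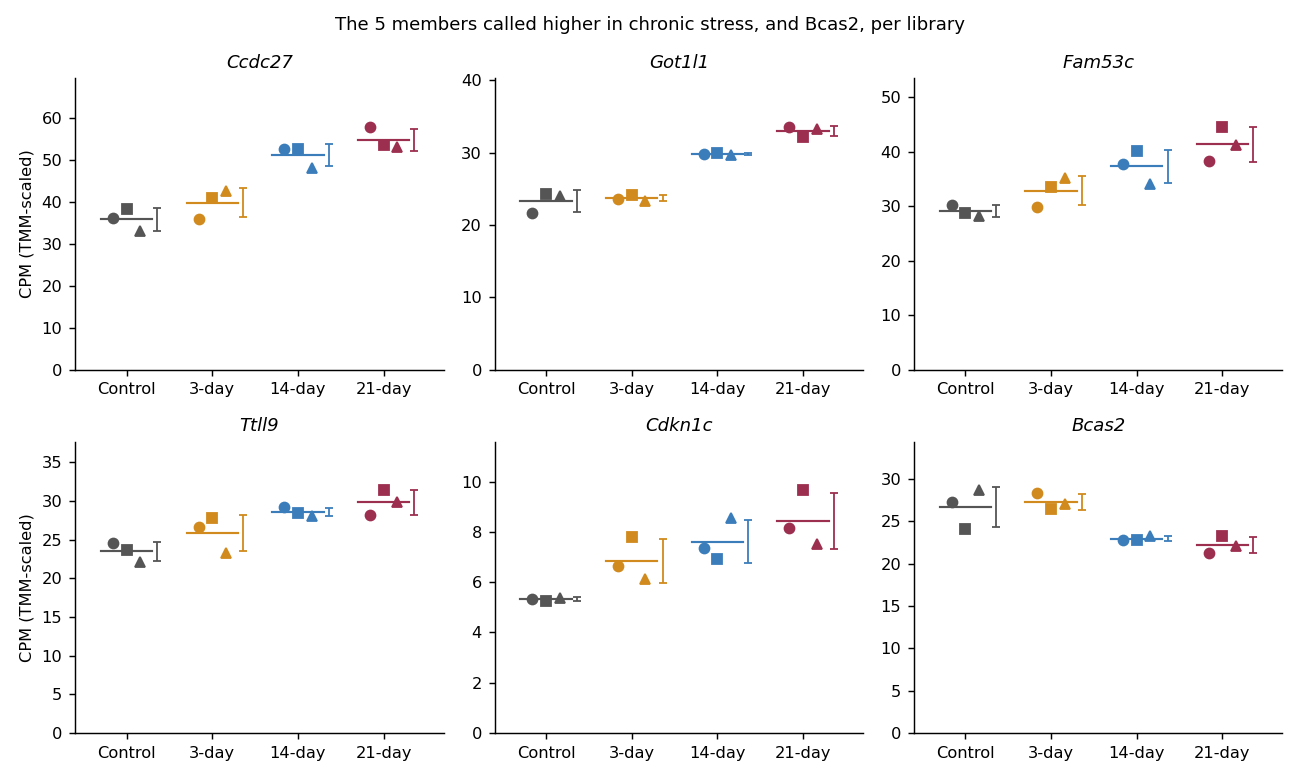
CPM, scaled by TMM, in each library for the 5 members called higher in the chronic libraries and for Bcas2 (circle, square and triangle for replicates 1, 2 and 3, line for the mean, bar for the SD). The chronic libraries lie above all controls for the first 5, and for Bcas2 they lie below them.

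These calls are edgeR quasi-likelihood tests with Benjamini-Hochberg adjustment, and they stand close to the threshold. Of the 9 fits that leave out a library, Ccdc27 stayed under an adjusted p of 0.05 in 6 and failed without control replicate 1 (0.060), control replicate 3 (0.0783) or 14-day replicate 2 (0.0548). Got1l1 stayed under it in 3, those without control replicate 2, 14-day replicate 3 or 21-day replicate 3, and Fam53c in 1, that without 14-day replicate 3. Ttll9 and Cdkn1c stayed in 0 of 9, with adjusted p between 0.0529 and 0.145 and between 0.0619 and 0.134. Ttll9 and Cdkn1c also failed with total count scaling and without a filter on low counts, and Got1l1 and Ttll9 with the leading transcript alone. With DESeq2 all 5 stayed under 0.05, among 20 of 182 members higher (background 5.33%) and 1 lower (0.549%, background 3.02%). The number of members called by edgeR was 9 without control replicate 2 and 0 to 3 without any other library.

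Next in order of p stood Mical3, a monooxygenase that acts on actin, which was at 89.4, 91.6 and 90.1 CPM in the 3 control libraries, 82.7, 91.4 and 95.8 in the 3-day, 100.1, 108 and 105 in the 14-day and 109, 115 and 119.6 in the 21-day libraries. Its chronic values lay above all controls, and its log2 fold change was 0.27 (SE 0.0586, adjusted p = 0.0523). Best1, a chloride channel, had one of 0.25 (SE 0.0583, adjusted p = 0.0597), Pla2g10, a secreted phospholipase, 0.25 (SE 0.0582, adjusted p = 0.0599), and Adgb, a globin needed for the flagellum, 0.24 (SE 0.062, adjusted p = 0.075), each with groups that did not overlap. Cast, the inhibitor of calpain, had one of 0.28 (SE 0.0663, adjusted p = 0.0619), and there 14-day replicate 2, at 159.9 CPM, stood level with control replicate 2, at 159.5 CPM.

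In the other direction Bcas2, a part of the splicing machinery, was the one member whose chronic libraries all lay below the controls. It was at 27.3, 24.1 and 28.7 CPM in the 3 control libraries, 28.4, 26.4 and 27 in the 3-day, 22.8, 22.8 and 23.3 in the 14-day and 21.3, 23.3 and 22.1 in the 21-day libraries. The control and 3-day values overlap, while the 14-day and 21-day values are lower, with a log2 fold change of -0.25 (SE 0.0669, adjusted p = 0.0835) against control and -0.32 (SE 0.0737, adjusted p = 0.17) for 21 against 3 days. Syce2, a protein of the synaptonemal complex that holds chromosomes together in meiosis, was at 11.3, 11.2 and 10.03 CPM in the 3 control libraries, 14.1, 12 and 10.2 in the 3-day, 8.95, 8.79 and 9.77 in the 14-day and 8.88, 9.24 and 10.8 in the 21-day libraries. The log2 fold change was -0.21 (SE 0.0928, adjusted p = 0.232) for chronic stress against control and -0.41 (SE 0.134, adjusted p = 0.297) for 14 against 3 days, where the groups did not overlap. Tfam, which packs mitochondrial DNA, had one of -0.28 (SE 0.133, adjusted p = 0.267), with overlapping groups. None of the 3 passed the adjusted test with edgeR in any comparison.

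The comparisons between durations use no control library, and so none of the levels that chose the members. Rats that began at the same age would differ here in age as well as in days of stress. The controls carry no day, so age and duration cannot be told apart. Against the 3-day group, the median log2 fold change was 0.12 both at 14 and at 21 days, with 151 and 144 members positive (backgrounds 48.3% and 48.2%), while all features had a median of -0.01 in each. After 14 days 64 members were higher at an unadjusted p under 0.05 (35.2%, background 7.73%) and 4 lower (2.20%, background 5.65%). After 21 days 64 were higher (35.2%, background 8.23%) and 2 lower (1.10%, background 8.32%). The groups did not overlap for 63 higher members at 14 days (34.6%, background 10.6%) and 74 at 21 days (40.7%, background 11.1%). Lower members with groups apart numbered 5 (background 10.2%) and 3 (background 13.4%). No member passed an adjusted p of 0.05 with edgeR, where 0.00472% of features were called lower at 21 days, whereas DESeq2 called 18 of 171 members with an adjusted p higher at 14 days (10.5%, background 3.24%) and 33 of 180 at 21 days (18.3%, background 3.71%). Either count of 64 was 39 without 3-day replicate 1 and at least 43 in the other fits that leave out a library. Both comparisons share the 3-day libraries.

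Between 14 and 21 days the members had a median of 0.03, 122 members positive (background 52.4%), 1 member higher at an unadjusted p under 0.05 (background 1.71%) and 0 lower (background 1.35%), 7 apart upwards (background 3.9%) and 1 downwards (background 4.69%), and 0 past the adjusted test with edgeR. The higher one was Lipe, with a log2 fold change of 0.22 (SE 0.066, adjusted p = 0.999). Without 21-day replicate 1 the count was 12, and without any other library it was 1 to 3.

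Of the mouse label classes, that with RS8 had the lowest median log2 fold change at 3 days. Of the 182, 73 carried the label RS4 only, 57 RS4 and RS6, 16 RS6 only, and 36 a label with RS8, of which 13 had RS8 alone. These 4 classes were pooled after their values were seen, and the labels are those of mouse cells. At 3 days against control the median log2 fold change was 0.00 for RS4 only, 0.02 for RS4 and RS6 and 0.01 for RS6 only, but -0.11 for those with RS8, of which 4 of 36 were positive (background 47.5%). The 149 higher spermatid markers were low there as well, with a median of -0.05, 31 positive, 0 higher at an unadjusted p under 0.05 (background 2.03%) and 4 lower (background 2.01%). For 14 against 3 days the medians were 0.10, 0.10, 0.03 and 0.20 in the same order, and for 21 against 3 days 0.11, 0.08, -0.01 and 0.28. Of the 36 with RS8, 23 were higher at an unadjusted p under 0.05 for 21 against 3 days (background 8.23%) and 0 lower (background 8.32%), and of the 73 with RS4 only 20 and 1 were. All of these comparisons use the same 3-day libraries, so a class that is low at 3 days tends to stand high against them. In chronic stress against control, which leaves those libraries out, the medians were 0.11, 0.13, 0.02 and 0.14.

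The mean log2 CPM of the members with RS8 was 5.89 ± 0.12 (SD, n = 3) in control, 5.81 ± 0.03 at 3 days, 5.97 ± 0.11 at 14 days and 6.07 ± 0.13 at 21 days. The 3-day libraries were tight and lay within the control range, and all chronic libraries were above them. The 16 members with RS6 only split, with 9 positive in chronic stress against control (background 49%) and quartiles of -0.02 and 0.19. Among them Zdbf2, an imprinted gene, had a log2 fold change of 0.23 (SE 0.0609, adjusted p = 0.0825) and Osgin1, an oxidative stress-induced growth inhibitor, 0.25 (SE 0.0783, adjusted p = 0.122), while Cep290, of the base of the cilium, had -0.03 (SE 0.0644, adjusted p = 0.853).

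**Figure D4:**
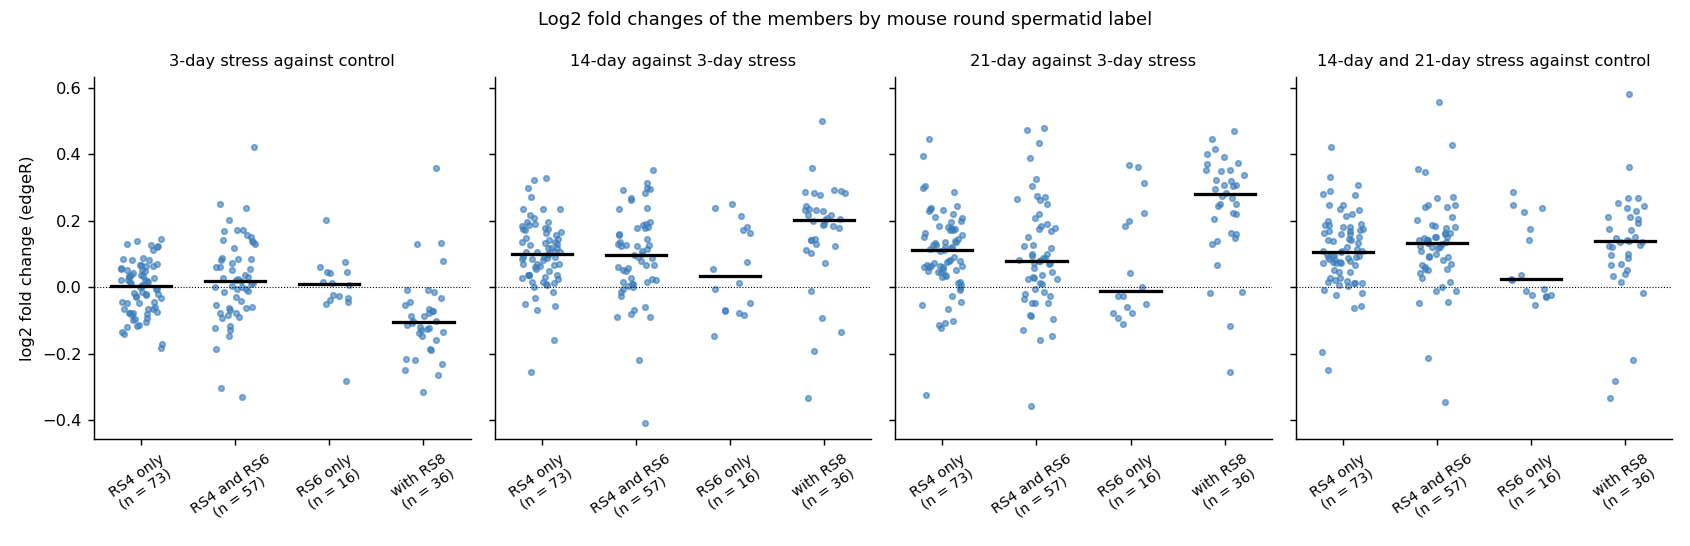
Log2 fold changes from edgeR of the 182 members by mouse round spermatid label in 4 comparisons, 1 point a gene, with the median of each class as a bar. The class with RS8 sits lowest at 3 days against control (median -0.11) and highest for 14 and 21 against 3 days (0.20 and 0.28). The comparisons named here share the 3-day libraries, so a class low at 3 days tends to rank high against them.

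Some members are shown here because their 3-day values were low or differed from the later ones, so that their course over the durations follows from the choice and is a description. Lipe was at 240.2, 297 and 271 CPM in the 3 control libraries, 206, 232 and 237 in the 3-day, 272, 252 and 279 in the 14-day and 305, 334 and 298 in the 21-day libraries. Its 3-day values lie below all controls, and its lowest 21-day value stands just above the highest control, with log2 fold changes of -0.26 (SE 0.0909, adjusted p = 0.985) at 3 days, 0.20 (SE 0.093, adjusted p = 0.373) at 21 days and 0.45 (SE 0.0694, adjusted p = 0.155) for 21 against 3 days. Herpud1, induced by stress of the endoplasmic reticulum and active in clearing its misfolded proteins, was at 141, 169 and 163 CPM in the 3 control libraries, 128, 136 and 135 in the 3-day, 159, 152 and 159 in the 14-day and 159.7, 176 and 167 in the 21-day libraries. The 3-day values are below all others, the controls overlap both chronic groups, the 21-day values start just above the highest at 14 days, and the log2 fold changes were -0.25 (SE 0.0752, adjusted p = 0.985) at 3 days and 0.31 (SE 0.0546, adjusted p = 0.158) for 21 against 3 days.

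Pdzd8, a protein of contact sites of the endoplasmic reticulum, carries the label RS6 and was at 199, 228 and 205 CPM in the 3 control libraries, 162, 184 and 175 in the 3-day, 211, 191 and 216 in the 14-day and 218, 254 and 214 in the 21-day libraries. It was lower than all controls at 3 days, with a log2 fold change of -0.28 (SE 0.0745, adjusted p = 0.985), and stood at 0.04 (SE 0.0804, adjusted p = 0.835) in chronic stress. Tbc1d20, which switches off a Rab GTPase of the secretory path, had one of -0.16 (SE 0.0598, adjusted p = 0.985) at 3 days, again with all 3 values below the controls. Car2, a carbonic anhydrase, was at 27.8, 35.8 and 40.1 CPM in the 3 control libraries, 34.1, 28.1 and 26.3 in the 3-day, 39.6, 40.6 and 45.7 in the 14-day and 37.7, 48.1 and 39.3 in the 21-day libraries. Its 3-day values overlap the controls, and for 14 against 3 days it had the highest log2 fold change of the members, 0.50 (SE 0.113, adjusted p = 0.236).

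**Figure D5:**
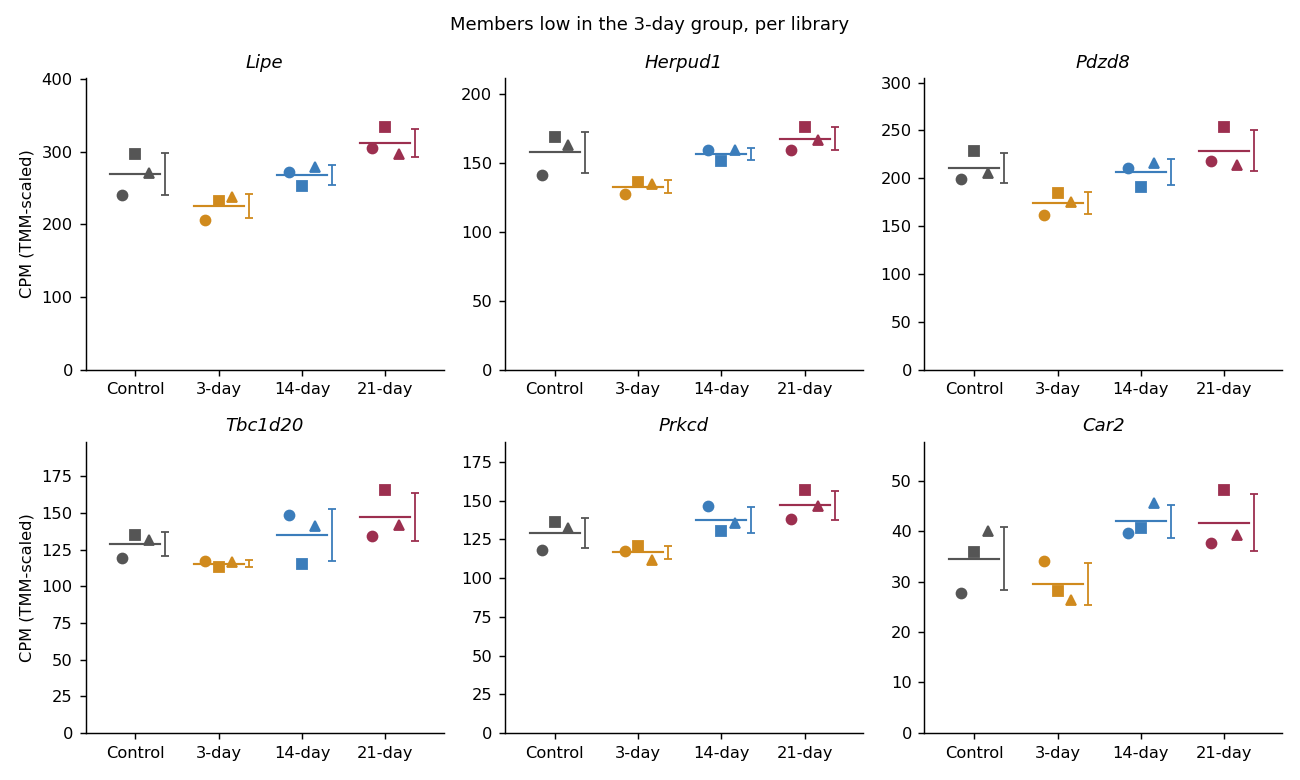
CPM, scaled by TMM, of 6 members in each library (circle, square and triangle for replicates 1, 2 and 3, line for the mean, bar for the SD). The 3-day libraries lie below all controls for Lipe, Herpud1, Pdzd8 and Tbc1d20 and overlap them for Prkcd and Car2.

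The members higher at 3 days were few. Tex21 had a log2 fold change of 0.17 (SE 0.0552, adjusted p = 0.985) and Zdbf2 one of 0.20 (SE 0.0626, adjusted p = 0.985), with groups that did not overlap, as for Cdkn1c above. Zdbf2 stayed above the controls in all chronic libraries, while for Tex21 the 21-day libraries overlapped them. The highest log2 fold change at 3 days was that of Apobec4, of the cytidine deaminase family, named after its values were seen, with 0.42 (SE 0.171, adjusted p = 0.985).

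The roles of the members were grouped by hand for 148 of them. Values at 3 days and values against 3 days share the 3-day libraries, so a group low in the former tends to be high in the latter. Medians in chronic stress against control were alike over these groups, from 0.10 to 0.14, where all features had -0.01. The 11 genes of the acrosome and sperm surface all had a positive log2 fold change, from 0.03 to 0.17 (background of positive values 49%), and 3 were higher at an unadjusted p under 0.05 (background 11.1%). Eqtn had one of 0.17 (SE 0.0637, adjusted p = 0.177), Izumo1 0.10 (SE 0.052, adjusted p = 0.307), Hyal5 0.09 (SE 0.0727, adjusted p = 0.498) and Zp3r 0.07 (SE 0.0481, adjusted p = 0.458). Izumo1 was at 76.8, 89 and 82.8 CPM in the 3 control libraries, 75.8, 85.2 and 83 in the 3-day, 90.8, 88.1 and 84.6 in the 14-day and 91.2, 90.2 and 91 in the 21-day libraries, so that the 21-day values lie above all controls by a small margin. Tmem190, another acrosomal protein, had 0.03 (SE 0.0526, adjusted p = 0.797).

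Of the 27 genes of the flagellum, cilium and head-tail junction, 22 were positive (background 49%) and 5 higher at an unadjusted p under 0.05 (background 11.1%), Ttll9 among them as the sole call. Catsper3 was at 70.4, 72.6 and 69.7 CPM in the 3 control libraries, 66.1, 77 and 74 in the 3-day, 74.8, 75.3 and 65.9 in the 14-day and 72.1, 73.8 and 70.1 in the 21-day libraries, with a log2 fold change of 0.01 (SE 0.0511, adjusted p = 0.9), and all groups overlap. Catsper4, its partner in the channel, had one of 0.29 (SE 0.138, adjusted p = 0.272). Sun5, which anchors the tail to the nucleus, was at 68.5 ± 6.33 CPM in control and 82.3 ± 6.73 at 14 days (SD, n = 3), with 0.26 (SE 0.0924, adjusted p = 0.368) at 14 days and 0.10 (SE 0.0838, adjusted p = 0.598) at 21 days. Fscb, of the fibrous sheath, had 0.13 (SE 0.0914, adjusted p = 0.435). Tmem232 was one of the few members lower at 14 than at 3 days with groups apart, -0.15 (SE 0.0507, adjusted p = 0.312).

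The group of kinases, phosphatases and regulators of small GTPases, 18 members with the receptor Paqr5 counted among them, had a median of -0.06 at 3 days against control. For 21 against 3 days its median was 0.21, where 11 were higher at an unadjusted p under 0.05 (background 8.23%) and 0 lower (background 8.32%). Prkar2a, a regulatory subunit of protein kinase A, was at 110.3, 147 and 124 CPM in the 3 control libraries, 114, 118 and 115 in the 3-day, 142, 126 and 143 in the 14-day and 134, 161 and 144 in the 21-day libraries. Its 3-day values lie inside the control range and below all chronic values, and the log2 fold change for 21 against 3 days was 0.31 (SE 0.0721, adjusted p = 0.172). Prkcd, a protein kinase C, had one of 0.31 (SE 0.0633, adjusted p = 0.163), and Paqr5, a membrane progestin receptor, 0.42 (SE 0.1, adjusted p = 0.176). Tssk4, a testis-specific serine kinase, had 0.15 (SE 0.0557, adjusted p = 0.17) in chronic stress against control, with groups apart. Rasa3 was lower at 14 than at 3 days, with -0.34 (SE 0.14, adjusted p = 0.366) and groups apart, and its 21-day libraries spread from 4.21 to 7.30 CPM.

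Among the 21 genes of protein quality control and ubiquitin the median was -0.08 at 3 days and 0.21 for 21 against 3 days, with 10 higher at an unadjusted p under 0.05 (background 8.23%) and 0 lower (background 8.32%). Creld2, like Herpud1 a gene induced by stress of the endoplasmic reticulum, was at 112, 109 and 107 CPM in the 3 control libraries, 110.3, 111 and 105 in the 3-day, 111, 112 and 108 in the 14-day and 109, 112 and 109 in the 21-day libraries. The 12 values lie between 105 and 112 CPM, and the log2 fold change in chronic stress was 0.00 (SE 0.0379, adjusted p = 0.996). Tmx4, a thioredoxin-like protein of the same compartment, had -0.12 (SE 0.0598, adjusted p = 0.356) for 21 against 3 days, with groups apart. Siah2, a ubiquitin ligase, had 0.13 (SE 0.0998, adjusted p = 0.485) and Asb17 0.16 (SE 0.105, adjusted p = 0.404).

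The 12 genes of lipid metabolism had 11 positive values in chronic stress (background 49%) and 5 higher at an unadjusted p under 0.05 for 21 against 3 days (background 8.23%), namely Lipe, Lpin1, Cyp51, Dgat2 and Abhd16b. Lpin1 had a log2 fold change of 0.30 (SE 0.0667, adjusted p = 0.168) there, Cyp51, of sterol synthesis, 0.22 (SE 0.0637, adjusted p = 0.19), Dgat2 0.17 (SE 0.0602, adjusted p = 0.241) and Abhd16b 0.22 (SE 0.0824, adjusted p = 0.257). Against control, Dgat2 had 0.19 (SE 0.0646, adjusted p = 0.148) in chronic stress and Abhd16b 0.02 (SE 0.115, adjusted p = 0.949). The sign for Abhd16b turned to -0.13 without control replicate 1.

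Of the 30 nuclear genes 25 had positive values in chronic stress (background 49%), with 9 higher (background 11.1%) and 2 lower (background 9.29%) at an unadjusted p under 0.05. The 2 were Bcas2 and Syce2. Nabp1, a single-strand DNA-binding protein, had a log2 fold change of 0.20 (SE 0.0539, adjusted p = 0.0808) and Bbx, a factor with an HMG box, 0.14 (SE 0.0425, adjusted p = 0.107), each with groups apart. Chd5 was at 307 ± 18.9 CPM in control and 331 ± 12 at 21 days, with 0.09 (SE 0.0804, adjusted p = 0.552) in chronic stress and overlapping groups. Creb3l4 had 0.28 (SE 0.183, adjusted p = 0.42) and Dscc1 0.13 (SE 0.2, adjusted p = 0.751), with the wide errors of low counts.

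The 21 genes of membrane traffic, cytoskeleton, matrix and channels had a median of -0.06 at 3 days, with 4 positive (background 47.5%), and 0.16 for 21 against 3 days, with 21 positive (background 48.2%) and 10 higher at an unadjusted p under 0.05 (background 8.23%). Micalcl had a log2 fold change of 0.12 (SE 0.065, adjusted p = 0.321) in chronic stress. Actg2 spread widely, at 9.59, 3.89 and 5.42 CPM in the 3 control libraries, 5.16, 3.79 and 6.14 in the 3-day, 6.9, 2.59 and 4.99 in the 14-day and 8.43, 2.05 and 5 in the 21-day libraries, with replicate 2 the lowest of each group. Among 8 other enzymes, 3 were higher at an unadjusted p under 0.05 in chronic stress (background 11.1%), namely Got1l1, Osgin1 and Car2, while Nqo2 spread from 0.992 to 4.27 CPM, with a log2 fold change of -0.33 (SE 0.45, adjusted p = 0.714). The 34 members with no listed role had 32 positive values in chronic stress (background 49%) and 9 higher at an unadjusted p under 0.05 (background 11.1%).

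Of the 182 members, 52 were sums of several transcripts. The share of the leading transcript was over 90% in every library for 20 of them, and its range over the 12 libraries had a median of 5.88 percentage points. In 2 of the 52, Cdkn1c and Vsig1, every chronic library had a higher share than every control. In 7 of the 52 every chronic library had a lower one, namely Adgb, Ankrd61, Atad1, Luzp1, Osgin1, Rbms1 and Scamp1. Among all 153 markers with several transcripts, these members included, 20 (13.1%) had groups that did not overlap. In Cdkn1c the leading transcript held 74.1% to 81.9% in the controls, 77.2% to 86.4% at 3 days and 83.3% to 92.1% in the chronic libraries. In Vsig1 it held 53.4% to 57.2% in the controls and 63.3% to 68.4% in the chronic libraries. In Cast the share ranged from 19.1% to 67.6% over the libraries and overlapped in all groups. For Got1l1 the call was lost with the leading transcript alone, with a log2 fold change of 0.59 (adjusted p = 0.0698).

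The 149 higher spermatid markers had much the same median as the members, 0.12 in chronic stress against control, with 139 positive (background 49%), 27 higher (18.1%, background 11.1%) and 1 lower (0.671%, background 9.29%) at an unadjusted p under 0.05 and 0 past the adjusted test with edgeR. For 21 against 3 days their median was 0.18, with 80 of 149 higher (53.7%, background 8.23%) and 0 lower (background 8.32%). Spermatocyte markers had a median of -0.05 in chronic stress against control, with 44 of 181 positive (24.3%, background 49%). There 0 were higher (background 11.1%) and 18 lower (9.94%, near the background of 9.29%). They took 4.71% to 5.08% of counts in the controls and 4.58% to 4.93% in the chronic libraries. For 21 against 3 days their median was -0.09, with 30 positive (background 48.2%). In that comparison 1 was higher (background 8.23%) and 44 lower (24.3%, background 8.32%). The 12 spermatogonia markers had a median of -0.30 in chronic stress against control, with 0 higher (background 11.1%) and 8 lower (66.7%, background 9.29%). They took 0.087% to 0.111% in the controls and 0.077% to 0.085% in the chronic libraries. The part of these lists in the members' values was not tested. With TMM factors from features outside the marker table, 49 members were higher in chronic stress against control at an unadjusted p under 0.05 and 6 at an adjusted one.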

How the data were processed

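RNA of 12 testis samples was sequenced after removal of ribosomal RNA. For each library the authors deposited a table of 31715 Ensembl transcripts with estimated counts, effective lengths and TPM, without pooling. The study's methods name Trimmomatic, HISAT2 on Rnor_6.0, HTSeq-count and DESeq2, while the deposited layout, with effective lengths, is that of the quantifier kallisto. In the deposited tables the TPM of each member equals its count over its effective length, scaled within the library, to within 0.00086%. The tables name transcripts only. All 578 markers of the study's marker table were found by equal counts, alone (130 members) or summed over neighbouring transcripts (52 members), and transcripts outside the markers were kept singly, giving 31512 features.

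After rounding of the estimated counts to whole numbers, the groups of a comparison were fitted by themselves with edgeR 4.0.16 (R 4.3.3), using TMM, filterByExpr and the quasi-likelihood test, with Benjamini-Hochberg adjustment over all features tested. The standard error is the log2 fold change over the square root of F. CPM are counts scaled to library size with TMM factors over all 12 libraries and log2 values use a prior count of 2, while overlap of groups was judged on CPM scaled within each comparison. The study used DESeq2 on pairs of groups, so DESeq2 1.42.0 was run beside edgeR. Nothing says beyond the labels how samples were kept apart, and p-values measure the spread between these samples. Replicates of a group differed beyond counting noise (chi-square over its degrees of freedom from 9.23 to 33.4), so none was a copy. Members, role groups, labels and named genes were chosen with earlier results of these data known. Named genes were those called in any comparison, those of smallest p with groups apart in each, the extremes of each role group, those nearest the limit and a list chosen for known roles. Alternatives were RLE size factors, total count scaling, TMM from features outside the marker table, no filter, at least 10 counts in every library, the replicate number as a block, 1 fit of all 12 libraries, DESeq2, the leading transcript alone, a limit 0.8 or 1.2 times as high, a prior count of 0.5 and each library left out. The fits were tested on simulated data, with log2 changes put into features drawn from all those tested. For 21 days against control, an adjusted p under 0.05 was reached by 0 of 48 changes of 0.25 and 1 of 50 changes of 0.5. For chronic stress against control it was reached by 0 of 49 and 12 of 50. The absence of an adjusted call therefore does not show the absence of a small change. Joins and summaries used pandas 2.3.3 and NumPy 2.4.6 under Python 3.11.15.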

Additional observations from a re-analysis of the deposited data

Results flagged for a closer look

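For 52 named members the 6 chronic libraries were searched for a value that stands apart by Dixon's ratio, the gap to the nearest value over the whole range, and chance alone passes this limit in about 1 of 20 groups. It was passed by 3 members. Cast, with a ratio of 0.683 on the log2 scale, was at 159.9 CPM in 14-day replicate 2 and between 173 and 179.7 CPM in the other 5. Tmem232, with 0.642, was at 164 CPM in 21-day replicate 3 and between 138.5 and 147 CPM in the others. Zp3r, with 0.638, was at 76.2 CPM in 21-day replicate 2 and between 72.1 and 73.6 CPM in the others.

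Lipe lay on opposite sides of control at the 2 ends of the series. Its log2 fold change was -0.26 at 3 days, with all 3 libraries below all controls, and 0.20 (0.204605 before rounding) at 21 days, with all 3 above them. The difference between these groups, fitted as 21 against 3 days, was 0.45 with an adjusted p of 0.155 in edgeR, so it did not pass the test.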

How the results depend on the processing

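Over all alternatives, the counts of members and their medians stayed close (a count within 1.5 times, a median within 1 SD of the control level) in 297 cases, while in 90 a count moved further, under every alternative but the limit at 1.2 times and the prior count, and the cause was not tested. With total count scaling, the higher members numbered 41 at 14 days and 50 at 21 days against control, and 54 at 21 days in 1 fit of all 12 libraries. The members called at an adjusted p under 0.05 in chronic stress against control, 5 as reported, were 3 without a filter, 9 with at least 10 counts in every library (fewer features tested), 8 in 1 fit of all 12 libraries, 20 with DESeq2 and 3 with the leading transcript alone. Lower members, 5 or fewer as reported, became 3 at 3 days in 1 fit of all 12 libraries or with the limit at 0.8 times, 2 at 14 days with RLE size factors or the leading transcript and 0 with total count scaling or DESeq2, and 2 at 21 days with the leading transcript. In chronic stress they became 1 with total count scaling, the strict filter, 1 fit of all libraries or DESeq2, in 14 against 3 days 2 in 1 fit of all libraries, and in 21 against 3 days 1 with RLE, outside TMM, no filter, the strict filter or DESeq2. For 21 against 14 days the higher member became 3 with RLE, outside TMM, 1 fit of all libraries or DESeq2, 4 with total count scaling and 2 with the leading transcript, which gave 1 lower.

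With each library left out, the higher and lower members ranged from 1 to 8 and 2 to 28 at 3 days, 13 to 53 and 0 to 3 at 14 days, 13 to 44 and 0 to 2 at 21 days, 27 to 82 and 1 to 2 in chronic stress (0 to 9 at an adjusted p), 39 to 69 and 2 to 5 for 14 against 3 days, 39 to 78 and 1 to 3 for 21 against 3 days, and 1 to 12 and 0 to 1 for 21 against 14 days.

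The replicate numbers shared by the groups were not treated as pairing the samples, since in no comparison did every same-numbered pair correlate above 0.1 in its deviations from the group means. The mean correlation was highest for 21 days against control, 0.118 (from -0.0186 to 0.225). There, at 14 days against control and for 21 against 3 days, 4 of 6 libraries correlated best with their own number. At 3 days against control 2 of 6 did, for 14 against 3 days 0 and for 21 against 14 days 1. A shared structure of the replicate numbers in some comparisons was not tested. With the replicate number as a block, 63 members were higher at 21 days, 8 lower at 3 days and 1 lower for 21 against 3 days, and 1 member, Ccdc27, was called in chronic stress against control.

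Among single members, the log2 fold change in chronic stress against control changed sign for Abhd16b (-0.126 without control replicate 1, -0.0079 without 21-day replicate 2, range with each library left out -0.126 to 0.155), Actg2 (0.0985 without control replicate 1, range -0.591 to 0.0985), Nqo2 (0.0711 without control replicate 2, range -0.625 to 0.0711), Herpud1 (-0.0322 without control replicate 1, range -0.0322 to 0.0924) and Catsper3 (-0.0014 without control replicate 3, -0.000976 without 14-day replicate 1, range -0.0014 to 0.0385). Creld2, at 0.00, turned to -6.25e-05 with RLE, -0.00429 with total count scaling, -0.00658 without a filter, -0.00201 with DESeq2, and ranged from -0.0172 to 0.0255 with each library left out. Of all other single values 1138 kept their direction and side of the threshold, 45 lost and 36 gained a call.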
